A study of Drosophila melanogaster with 6 samples.

Results

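The genes described here are 9 marker and effector genes of Drosophila blood cells, taken from a table of 14239 genes measured by mRNA-seq in cells sorted from wing imaginal discs. They are Hml, He, NimC1, eater, srp, lz, crq, Bc and CG8193, and they were chosen by name as blood cell genes with the FPKM of both groups already known, so their counts and ratios are a description and carry no test. Of the 9 names, 7 equal a symbol in the table. The other 2 were reached through a RefSeq synonym: NimC1 is listed as nimC1, and Bc, the prophenoloxidase now named PPO1, is listed as proPO-A1.

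The ablated group and the control group each comprised 3 samples of GFP-positive cells isolated by FACS. All animals carried nub-GFP, an insertion that reports expression of nubbin in the wing pouch, together with rn-Gal4 and the temperature-sensitive repressor GAL80ts, each in 1 copy. The ablated animals also carried UAS-rpr, so that a shift to 30 °C for 24 h, after rearing at 18 °C, let the rotund driver switch on the cell death gene reaper in the wing primordium. The mock-ablated control animals went through the same shift without UAS-rpr. Discs were collected after 24 h of recovery, when the ablated discs held a regeneration blastema. Each sample pooled many discs from several days of dissection, and the sort gated on GFP alone, with no blood cell marker. By the paper, an ablated sample pooled several times as many discs as a control sample but gave fewer sorted cells. Ablation and the number of discs therefore go together, and the part of each in the values below was not tested.

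The authors combined the samples of a group into 1 FPKM per gene (fragments per kilobase of transcript, relative to the size of the library). No spread between samples could therefore be given, and the number of fragments behind a value is not known. No difference below was checked here against replicates, and the authors' own test results were not used. Levels of wing pouch markers were examined first. They do not establish identity, because the sort was on nub-GFP and markers of other cell types were also above 0. Of the 7 pouch markers, 2 had the higher value in ablated cells. The 7 wing pouch markers summed to 279 FPKM in ablated cells and 367 FPKM in control cells, none was listed at 0, and nub itself had 51.8 FPKM in ablated cells and 89.9 FPKM in control cells. Because the libraries are bulk, fewer cells of a type and less RNA per cell cannot be told apart.

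Drosophila larvae have 3 classes of blood cell. Plasmatocytes are macrophage-like cells that engulf bacteria and dying cells, crystal cells store prophenoloxidases and release them at wounds to drive melanization, and lamellocytes wrap parasitoid eggs. The GATA factor Serpent acts early in the blood lineage, and the RUNX factor Lozenge directs cells to the crystal cell fate. Blood cells circulate or attach to tissues, including the surface of imaginal discs, and are not part of the disc epithelium.

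The 2 prophenoloxidase genes had the largest log2 ratios of the 9 genes. CG8193, which encodes the prophenoloxidase now named PPO2, had 10.5 FPKM in ablated cells and was listed at 0 in control cells. Bc had 5.91 FPKM in ablated cells and was likewise listed at 0 in control cells. Both proteins are copper enzymes of crystal cells that oxidize phenols after proteolytic activation. In ablated cells CG8193 was 1.77 times as high as Bc on the FPKM scale, and the genes lay at percentiles 62.4 and 55.2 of all 14239 genes by level. No fold is given for either, because the value in control cells is 0.

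A listed 0 can be a failed estimate in this table, since Ef1alpha48D and RpL15, which every cell uses, are listed at 0 in both groups. Whether the control 0 of CG8193 or Bc is such a failure cannot be told from the 2 values per gene. The authors' software did test both genes. The ranks below describe the pair among all genes with a control value of 0. They rest on the ablated values and cannot show if the 0 is real. The table lists 2355 genes at 0 in control cells, of which 699 were above 0 in ablated cells. Among all of these CG8193 ranked 7 and Bc ranked 10 by ablated FPKM, and the 8 other genes ahead of Bc were small RNA genes (7 snoRNA genes and mir-100). Among the protein-coding ones, by RefSeq biotype, 662 were above 0 in ablated cells, with a median of 0.0436 FPKM, and 9 reached 1 FPKM. CG8193 ranked 1 and Bc (proPO-A1) ranked 2 of these 662, and the gene at rank 3, MtnC, had 2.78 FPKM in ablated cells. NimC1 (nimC1), the third blood cell gene listed at 0 in control cells, ranked 116.

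**Figure D1:**
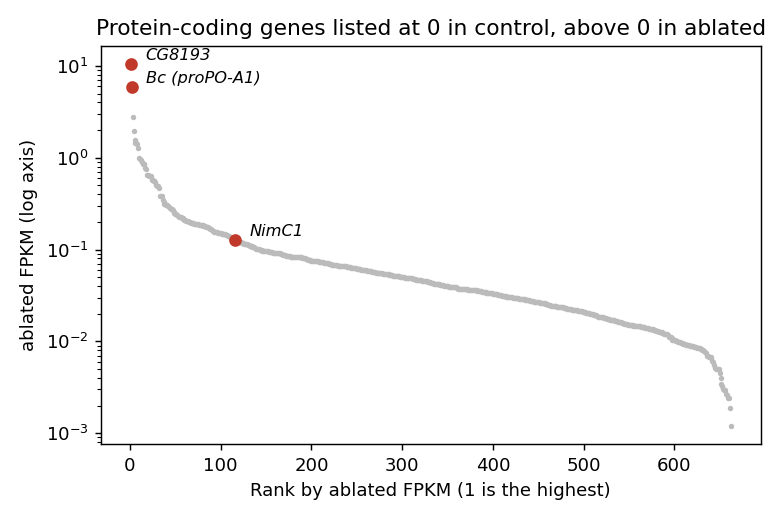
Ablated FPKM (log axis) of the 662 protein-coding genes that are listed at 0 in control cells and above 0 in ablated cells, in order of rank; each point is 1 gene. CG8193 at 10.5 FPKM and Bc at 5.91 FPKM hold the first ranks, and NimC1 at 0.127 FPKM lies within the body of the curve.

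CG8193 (FBgn0033367) occupies bases 4929765 to 4932213 of chromosome 2R in release 5 of the genome, and no other gene shares its locus entry. Bc (FBgn0283437) is entered with a locus on chromosome 2R from 13761452 to 13813097, which it shares with 5 other genes. In the release 6 annotation it lies inside the gene Elk on the opposite strand and overlaps none of its exons. Those 5 genes were far lower than Bc in ablated cells: elk had 0.0623 FPKM in ablated cells and 0.0210 FPKM in control cells, and CG14491 and CG14492 were listed at 0 in both groups.

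lz, the crystal cell transcription factor gene, was near the bottom of the range in both groups. It had 0.0839 FPKM in ablated cells and 0.00429 FPKM in control cells. The log2 ratio of ablated to control, computed with 0.1 FPKM added to both values, was 0.82. Without the added 0.1 FPKM the log2 ratio was 4.29, so its size depends on how so low a value is treated. lz (FBgn0002576; chromosome X, 9178682 to 9197670, release 5) has its locus entry to itself. The authors' software left it untested for lack of reads. It did the same for Hml, NimC1 and eater, together 4 of the 9 genes, and for 4855 of the 14239 genes in the table, or 34.1%.

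Of the plasmatocyte genes, Hml, NimC1 and eater were barely detected, while crq had 19.99 FPKM in ablated cells and 25.1 FPKM in control cells. Hml encodes Hemolectin, a large clotting protein whose promoter is widely used to mark larval blood cells. It had 0.0606 FPKM in ablated cells and 0.0133 FPKM in control cells, a log2 ratio of 0.50 with the added 0.1 FPKM and 2.18 without it. NimC1, a Nimrod family receptor for bacteria and the antigen of a common plasmatocyte antibody, had 0.127 FPKM in ablated cells and was listed at 0 in control cells. The related receptor gene eater had 0.133 FPKM in ablated cells and 0.0596 FPKM in control cells, a log2 ratio of 0.55. Together these 3 genes summed to 0.321 FPKM in ablated cells and 0.0730 FPKM in control cells, against 16.4 FPKM in ablated cells for the prophenoloxidase pair. All 3 had the higher value in ablated cells, and all 3 were left untested by the authors' software.

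Hml (FBgn0029167) occupies bases 13839154 to 13859985 of chromosome 3L in release 5 of the genome and shares this entry with CG8745, which had 0.0938 FPKM in ablated cells and was listed at 0 in control cells. In release 6 the genes do not overlap. NimC1 (FBgn0259896; chromosome 2L, 13974117 to 13976753) and eater (FBgn0243514; chromosome 3R, 22921589 to 22925401) share their entries with no other gene. The longest transcript of Hml in the release 6 annotation has 11756 bases in 26 exons, against 2999 bases for NimC1 and 3301 bases for eater, so an FPKM of a given size rests on more fragments for Hml. By the plane of log2(FPKM + 0.1) of both groups, the genes nearest to Hml were CG16899, CG32750 and CG42450, at distances of 0.02, 0.03 and 0.04, and 30 genes in all lay within 0.1 of it. With 1 value per group this likeness rests on 2 numbers per gene.

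He was higher in ablated cells. It encodes Hemese, a small surface protein found on all classes of larval blood cell. Its level was 1.10 FPKM in ablated cells and 0.0720 FPKM in control cells, 15.3 times as high, with a log2 ratio of 2.80 with the added 0.1 FPKM. Adding 1 FPKM instead gave 0.97, which is under the fold threshold of 1.3 that the study used on the log2 scale. He lay at percentile 40.3 of all genes in ablated cells and at percentile 25.5 in control cells. The gene (FBgn0028430; chromosome 2L, 13970529 to 13972947, release 5) shares its entry with nimB5. In release 6 the exons of He and NimB5 overlap on opposite strands. The libraries were made with a stranded kit. The sources do not say if strand was used in counting, which leaves the value of He uncertain. nimB5 itself had 0.106 FPKM in ablated cells and 0.0785 FPKM in control cells.

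**Figure D2:**
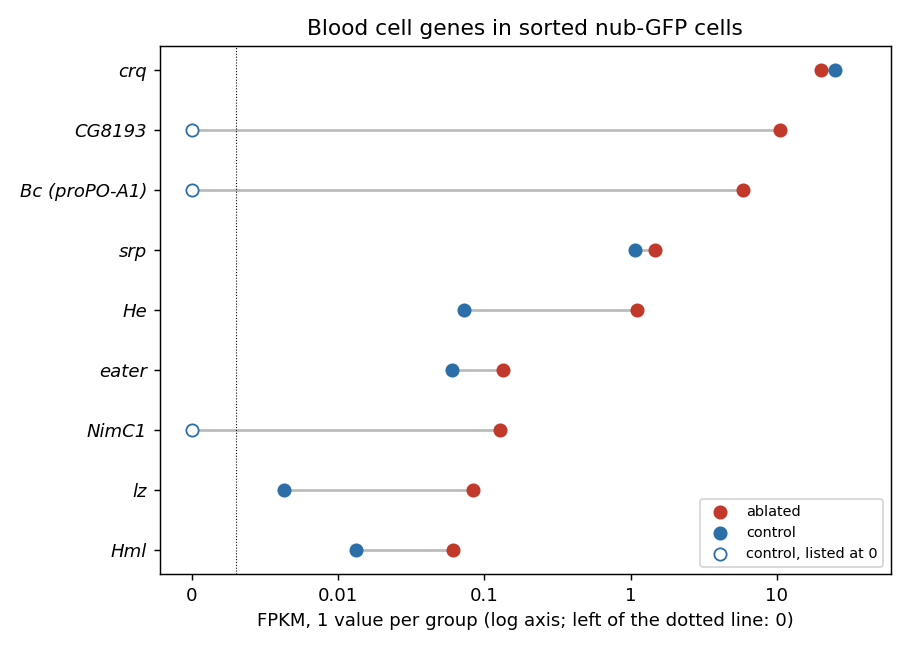
FPKM (log axis) of the 9 blood cell genes, 1 value per group; red points are ablated cells, blue points control cells, and open blue points left of the dotted line are control values listed at 0. In 8 of the 9 genes the ablated value is the higher one, from 0.0606 FPKM for Hml to 10.5 FPKM for CG8193, and crq is the exception. Among all genes with a mean of at least 0.1 FPKM, 54.7% have the higher ablated value. Hml, NimC1, eater and lz are below that mean.

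Of the transcription factor genes, srp was present in both groups at a similar level. It had 1.48 FPKM in ablated cells and 1.07 FPKM in control cells, a log2 ratio of 0.43. Its percentile among all genes was 42.7 in ablated cells and 43.4 in control cells. Serpent is also active in the fat body, so its transcript does not mark blood cells alone. srp (FBgn0003507; chromosome 3R, 11811923 to 11829807, release 5) has its own entry, and in release 6 a long non-coding RNA gene on the same strand overlaps its exons.

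crq was the most abundant of the 9 genes and the only one with a lower value in ablated cells. It encodes Croquemort, a class B scavenger receptor with which plasmatocytes engulf apoptotic cells. Its level was 19.99 FPKM in ablated cells and 25.1 FPKM in control cells, a log2 ratio of -0.33. When the FPKM of each group were scaled to the same sum, the log2 ratio was -0.05. crq (FBgn0015924; chromosome 2L, 431253 to 453023, release 5) shares its entry with ex, the Hippo pathway gene expanded, and in release 6 their exons overlap on opposite strands. ex had 68.1 FPKM in ablated cells and 64.0 FPKM in control cells. With strand use in counting not stated, how many of the fragments given to crq came from ex was not tested. The genes nearest to crq in the plane of both values were HBS1, CG12259 and CG12030, at distances of 0.02, 0.03 and 0.03.

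Over the whole group, 8 of the 9 genes had the higher value in ablated cells and 1 the lower. Among all genes with a mean of at least 0.1 FPKM, 54.7% had the higher value there. Of the members with such a mean, He, srp, Bc and CG8193 had the higher ablated value and crq the lower. All 9 genes summed to 39.4 FPKM in ablated cells and 26.3 FPKM in control cells. Without crq, the member with the lower ablated value, the remaining 8 genes summed to 19.4 FPKM in ablated cells and 1.22 FPKM in control cells. Few genes set these sums: CG8193 and Bc held 16.4 FPKM in ablated cells, and srp held 1.07 FPKM in control cells. Of the 9 genes, 5 had a mean of at least 0.1 FPKM over both groups (He, srp, crq, Bc and CG8193), and 4 did not. Those with a mean of at least 0.1 FPKM and a log2 ratio of at least 1.3 were CG8193, Bc and He. They were 3 of the 5 above that minimum and of the 9 in all, and none had a ratio of -1.3 or less. They passed the minimum only through their ablated value, so the number supports nothing by itself. Across all 10810 genes with a mean of at least 0.1 FPKM, 775, or 7.17%, were at least 1.3 higher and 230, or 2.13%, were at least 1.3 lower (1164 and 177 with both groups scaled to the same sum of FPKM). The median log2 ratio was 0.82 over the 9 genes, the value of lz, with the 4 genes below the minimum included. It was 0.02 over all 14239 genes and 0.07 over the 10810. Relative to the median of the 10810, He was 2.74 higher, srp 0.37 higher and crq 0.39 lower on the log2 scale. Scaling both groups to the same sum of FPKM would raise every log2 ratio of a well expressed gene by 0.28, and 8 genes stay higher and crq lower under it.

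**Figure D3:**
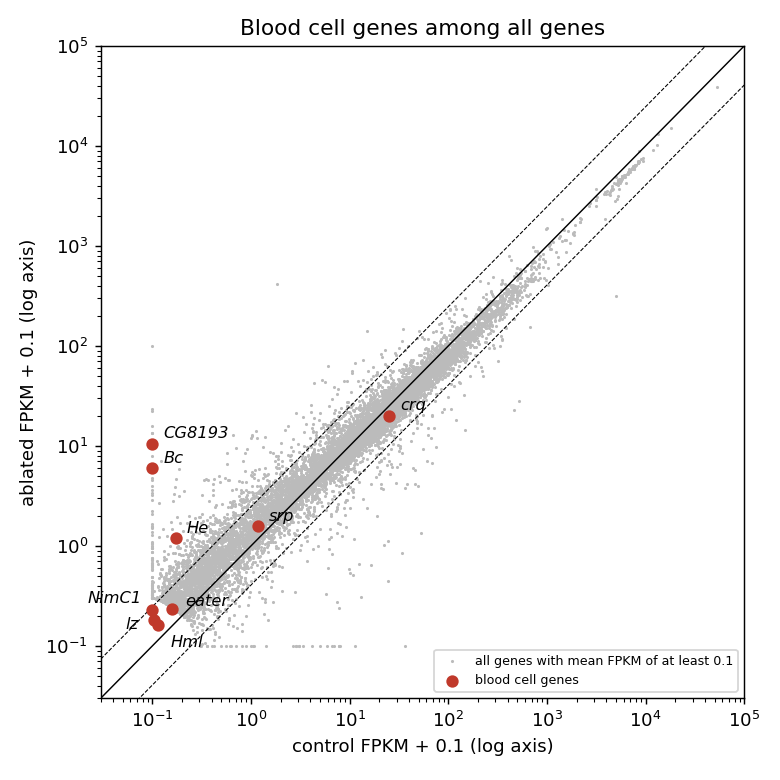
Ablated FPKM + 0.1 against control FPKM + 0.1 (both axes log) for the 10810 genes with a mean of at least 0.1 FPKM (grey) and the 9 blood cell genes (red); the solid line marks equal values and the dashed lines log2 ratios of 1.3 and -1.3. CG8193, Bc and He lie above the upper dashed line, srp and crq lie near the solid line, and the other 4 genes sit in the lower left corner.

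In order of level in ablated cells, the genes ran from crq through CG8193, Bc, srp, He, eater, NimC1 and lz to Hml. In control cells the order was crq, srp, He, eater, Hml and lz, followed by the 3 genes listed at 0. Since no spread between samples is known, neighbours as close as eater and NimC1 in ablated cells cannot be told apart, and neither can He and eater in control cells.

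Other genes of blood cell biology were examined in 6 lists arranged by role, with 71 genes in all besides the members, of which 70 were matched in the table. A mean of at least 0.1 FPKM was found for 59 of them. Of these, 12 had a log2 ratio of at least 1.3 and 4 of -1.3 or less, or 20.3% and 6.78%, beside 7.17% and 2.13% of all genes. With both groups scaled to the same sum of FPKM, the numbers were 20 and 2. Their median log2 ratio was 0.62, beside 0.07 over all genes. Many of these genes also act in the disc epithelium or in other tissues, so their levels are not those of blood cells alone.

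Among 16 other phagocytosis receptor genes, 8 had a mean of at least 0.1 FPKM and 1 of these, Sr-CI, was past the fold. Sr-CI, a class C scavenger receptor for bacteria found on plasmatocytes, had 1.296 FPKM in ablated cells and 0.283 FPKM in control cells, a log2 ratio of 1.87. The remaining class C receptors were also higher in ablated cells, by less than the threshold. Sr-CIV had 3.30 FPKM in ablated cells and 1.36 FPKM in control cells. Sr-CII had 0.273 FPKM in ablated cells and 0.180 FPKM in control cells, and Sr-CIII had 0.219 FPKM in ablated cells and 0.0678 FPKM in control cells. Sr-CII and Sr-CIII were left untested by the authors' software. The 9 other Nimrod genes, relatives of NimC1 and eater, were close to absent. Their highest value was 0.154 FPKM in ablated cells (nimB2) and 0.382 FPKM in control cells (nimC3), 5 of them were listed at 0 in control cells, and nimB3 was listed at 0 in both groups. Draper, an engulfment receptor that epithelial cells and glia also use, had 33.3 FPKM in ablated cells and 36.4 FPKM in control cells, and shares its locus entry with 3 other genes.

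The prophenoloxidase relatives and activators did not share the pattern of CG8193 and Bc. CG42640, the third prophenoloxidase gene of the fly and one expressed in lamellocytes, had 1.04 FPKM in ablated cells and 0.817 FPKM in control cells, a log2 ratio of 0.32. Of 11 matched genes of the prophenoloxidase cascade and of clotting, none was at least 1.3 higher, 1 was at least 1.3 lower and 10 lay between, with a median log2 ratio of -0.13 that became 0.13 with both groups scaled to the same sum. The lower gene was SPE, a protease that processes the Toll ligand Spätzle, with 3.54 FPKM in ablated cells and 10.5 FPKM in control cells. The clotting gene fon had 2.18 FPKM in ablated cells and 1.002 FPKM in control cells, a log2 ratio of 1.05.

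The list of 12 transcription factors of blood cell formation had 11 genes with a mean of at least 0.1 FPKM. zfh1, Mef2 and peb were at least 1.3 higher, kn was at least 1.3 lower, and 7 lay between. zfh1 and Mef2 are also in the list of myoblast markers. peb, whose product Hindsight acts in crystal cell maturation and in many epithelia, had 3.24 FPKM in ablated cells and 1.16 FPKM in control cells. kn, which in the lymph gland marks the niche and in the wing disc patterns the intervein, had 6.06 FPKM in ablated cells and 19.0 FPKM in control cells. ush, a partner of Serpent that limits crystal cell number, had 17.3 FPKM in ablated cells and 9.78 FPKM in control cells, a log2 ratio of 0.81.

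Lamellocyte genes had 5 members with a mean of at least 0.1 FPKM, of which 1 was past the fold. This was atilla, listed as CG6579, a surface protein by which lamellocytes are recognised. It had 4.29 FPKM in ablated cells and 0.382 FPKM in control cells, a log2 ratio of 3.19. The integrin gene ItgaPS4, listed as alphaPS4, had 3.43 FPKM in ablated cells and 1.40 FPKM in control cells, a log2 ratio of 1.23, and shares its locus entry with another gene.

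Among the matrix and opsonin genes that blood cells secrete, 4 of 11 were at least 1.3 higher: Cg25C, vkg, Tig and SPARC. SPARC, listed as BM-40-SPARC, a collagen-binding protein of basement membranes, had 21.3 FPKM in ablated cells and 4.89 FPKM in control cells. Tig, an integrin ligand, had 2.35 FPKM in ablated cells and 0.329 FPKM in control cells. Ppn, which encodes the matrix protein Papilin, was at least 1.3 lower, with 39.4 FPKM in ablated cells and 114 FPKM in control cells. Pxn, a peroxidase of the matrix that marks maturing blood cells, had 0.212 FPKM in ablated cells and 0.0295 FPKM in control cells, a log2 ratio of 1.27. The authors' software left Pxn untested. Tig and Pxn each share a locus entry with another gene, and the secreted matrix genes are also expressed by the fat body.

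Markers of cell types other than pouch and blood also differed between the groups. Of 10 myoblast markers, 7, zfh1 and Mef2 among them, were at least 1.3 higher and none was as much lower. Over all genes the shares were 7.17% higher and 2.13% lower, which apply beside each list here. The 10 myoblast markers summed to 80.9 FPKM in ablated cells and 58.8 FPKM in control cells. The most abundant of them, how, had 29.6 FPKM in ablated cells and 40.5 FPKM in control cells, and the other 9 were higher in ablated cells. The 8 fat body markers summed to 446 FPKM in ablated cells and 601 FPKM in control cells. Nearly all of it came from CG6783, the match to the listed name FABP. CG6783 had 441 FPKM in ablated cells and 599 FPKM in control cells. Of the 5 with a mean of at least 0.1 FPKM, the other 4 had the higher value in ablated cells. Of these 4, 1, Lsp1beta, was past the fold. The 5 tracheal markers summed to 140 FPKM in ablated cells and 81.3 FPKM in control cells, with 2 of 4 at least 1.3 higher and 1 as much lower. The 6 muscle markers summed to 6.82 FPKM in ablated cells and 4.32 FPKM in control cells, with 2 at least 1.3 higher. The 5 matched markers of glia and neurons summed to 13.9 FPKM in ablated cells and 7.596 FPKM in control cells, with none past the fold. No marker in these lists was at 0 in either group. Of the 7 pouch markers none was past the fold, and their median log2 ratio was -0.71. The part of the sorted cells' makeup in the values of the blood cell genes was not tested.

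**Figure D4:**
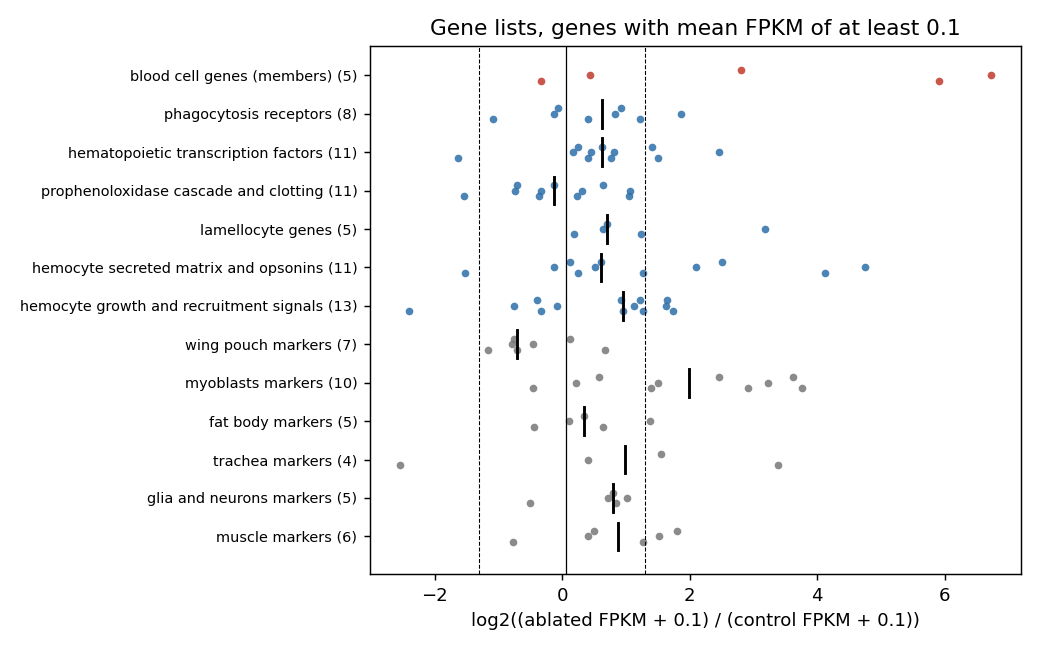
Log2 ratio of ablated to control, with 0.1 FPKM added to both values, for the genes of each list that have a mean of at least 0.1 FPKM (their number in parentheses); black ticks are list medians, the solid line is the median of all 10810 genes at 0.07 and the dashed lines mark 1.3 and -1.3. The positions of CG8193 and Bc, the rightmost red points, are set by the added 0.1 FPKM because their control value is 0. The median of the myoblast markers is 1.98 and that of the pouch markers is -0.71.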

How the data were processed

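The data are mRNA-seq of GFP-positive wing disc cells, 3 ablated and 3 control samples. The authors aligned trimmed reads with Tophat2 (0.6) to the release 5 Drosophila genome, estimated FPKM with Cufflinks (0.0.7), with bias and multi-read correction, and ran Cuffdiff with geometric library normalization. The deposited FPKM are 1 value per gene and group, with no counts, so depth per gene is unknown and no interval or test was computed. The authors' fold changes, test statistics, p-values, q-values and significance calls in the same table were not used, but the test status was read for genes with too few reads.

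Log2 ratios of ablated to control used log2(FPKM + 0.1), which understates the change of low genes. Genes with a mean of at least 0.1 FPKM counted as past the fold at 1.3 or more, or -1.3 or less, the study's threshold. The code for this count was tested on simulated data with known changes, which is no test of the genes themselves. Lists were matched by symbol or by a RefSeq synonym that points to 1 gene. Bc is a synonym of 3 genes, of which the prophenoloxidase was taken. Gene models came from BDGP6 (release 6), while coordinates are those of the files, counted from 1.

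Genes named are the 9 members, list genes past the fold, close relatives of members, and the 3 genes nearest to Hml and to the most abundant member. MtnC, genes at shared loci, and other list genes within the fold were named after their values were seen. Members and lists were chosen with earlier results of these data known. Python 3.11.15, numpy 2.4.6, pandas 2.3.3 and matplotlib 3.10.9 were used.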

Additional observations from a re-analysis of the deposited data

How the results depend on the processing

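Each count was recomputed under 10 alternatives. Of the 9 blood cell genes, 3 were at least 1.3 higher. The number was 2 with a pseudocount of 1 FPKM and 2 with a mean of at least 1 FPKM. It was 1 without a pseudocount, which leaves out the genes listed at 0, and 1 without genes that share a locus. The other blood cell genes at least 1.3 higher were 12, and 6 with a pseudocount of 1 FPKM, 20 with a threshold of 1.0, 6 with a threshold of 2.0 and 20 with both groups scaled to the same sum of FPKM. Those lower were 4, and 1 with a threshold of 2.0 and 2 with both groups scaled to the same sum of FPKM. Of all genes, 775 were higher, and 187 with a pseudocount of 1 FPKM, 343 with a mean of at least 1 FPKM, 1311 with a threshold of 1.0, 243 with a threshold of 2.0 and 1164 with both groups scaled to the same sum of FPKM. Lower were 230, and 150 with a pseudocount of 1 FPKM, 329 with a threshold of 1.0 and 111 with a threshold of 2.0. This number was 173 with a mean of at least 1 FPKM, 156 without genes that share a locus and 177 after the same scaling. The number of all genes that were higher was 1147 with a pseudocount of 0.01 FPKM and 1106 without a pseudocount. Each setting not named for a count moved it by less. No member's log2 ratio changed sign. With a pseudocount of 0.01 FPKM the log2 ratio of Hml was 1.597, that of lz 2.72 and that of NimC1 3.78. No paired analysis was possible because the table holds 1 value per group, and for the same reason no replicate could be left out.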

Other observations

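Signals that act on blood cell growth, recruitment or wound attachment were examined as a further list. Of 13 such genes, 3 had a log2 ratio of at least 1.3, 1 of -1.3 or less and 9 lay between. The shares were 23.1% and 7.69%, beside 7.17% and 2.13% of all genes. The median was 0.95, beside 0.07 over all genes. The genes past the fold were os, upd3 and Adgf-A on the higher side and spz on the lower side. Adgf-A, an adenosine deaminase that blood cells release, had 0.306 FPKM in ablated cells and 0.0302 FPKM in control cells. It was left untested by the authors' software and shares its locus entry with 3 other genes. spz, the gene of the Toll ligand Spätzle, had 1.13 FPKM in ablated cells and 6.43 FPKM in control cells. Among the ligands of the receptor Pvr, on which blood cell survival depends, Pvf2 had 10.9 FPKM in ablated cells and 5.599 FPKM in control cells, Pvf3 0.743 FPKM in ablated cells and 0.347 FPKM in control cells, and Pvf1 2.23 FPKM in ablated cells and 2.97 FPKM in control cells. Pvr itself had 22.2 FPKM in ablated cells and 23.4 FPKM in control cells. egr, the TNF ligand gene, had 4.33 FPKM in ablated cells and 1.94 FPKM in control cells, a log2 ratio of 1.12.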
